A study of Mus musculus with 3 samples.

Results

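Whole dorsal root ganglia (DRGs) taken 7 days after spared nerve injury (SNI) were compared, cell class by cell class, with ganglia of naïve mice. A barcode was taken as a cell from 500 detected genes upward, if mitochondrially encoded transcripts gave no more than 20% of its unique molecular identifiers (UMIs, each counted as 1 captured RNA molecule). This kept 3152 naïve and 2682 day 7 cells, 5834 of the 9662 kept cells and 11937 deposited barcodes of the series, whose remaining library was collected 14 days after the injury. The mice were male C57BL/6J animals of 13 weeks. Naïve mice were untreated, and SNI mice had the injury on both sides. Each of the 3 libraries pooled the L3 and L4 ganglia of 2 mice (8 DRGs), which were perfused and dissociated with collagenase and dispase, and mice within a pool could not be separated. With 1 library per condition there is no replicate, no test and no p-value, and every interval below covers counting error only. Cells with many UMIs of a gene make the true spread wider than these intervals. The day 14 library is given as a level beside the others, and comparisons of either injured library share the naïve one.

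In SNI, the common peroneal and tibial branches of the sciatic nerve are cut and the sural branch is spared. Cut sensory neurons switch on genes of axon regrowth, among them the transcription factors Atf3 and Sox11, and macrophages gather around their cell bodies. Satellite glial cells (SGCs) wrap each neuronal soma, Schwann cells wrap the axons, and endothelial and mural cells form the vessels. Type I interferon, protein stress and the time of day each act on known sets of genes in nearly every cell type, through the factors ISGF3, heat shock factor and the clock proteins.

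The naïve and day 7 libraries held 23107376 and 22343246 UMIs, and their kept cells had medians of 3072 and 4010.5 UMIs (day 14, 4199). They shared 1 cell barcode. Cells were assigned to 6 classes by the 74 markers of 11 cell types, and 126 to 130 cells per library scored for several classes and 38 for none. Scrublet called 29 naïve and 32 day 7 cells as doublets (0.920% and 1.19%), and they were kept. Each class was led by its own markers in every library, which the assignment by these markers fixed in advance. Levels are given in CPM (UMIs of a gene scaled to a common total of UMIs per class). The 8 neuron markers summed to 8222 and 10016 CPM in naïve and day 7 neurons. In vascular cells they summed to 83.4 and 114 CPM, a measure of free RNA.

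Of the 6 classes, immune cells had the largest gain in share. They made up 103 of 3152 naïve cells (3.27%, exact 95% interval 2.67 to 3.95) and 250 of 2682 day 7 cells (9.32%, 8.25 to 10.5), a ratio of 2.85 (2.26 to 3.62), and the day 14 library stood at 8.57%. Most of this lay in macrophages, which went from 65 cells (2.06%) to 206 cells (7.68%), a ratio of 3.72 (2.81 to 5.0). T and natural killer cells numbered 9 and 21, neutrophils 16 and 19, and B cells 13 and 4. Because shares sum to 100% and dissociation may release cell types unequally, more cells of one type and fewer of another cannot be told apart.

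SGCs took a smaller share after injury. They were 764 cells (24.2%, 22.8 to 25.8) in the naïve and 504 cells (18.8%, 17.3 to 20.3) in the day 7 library, a log2 ratio of -0.37 (-0.53 to -0.20), and 18.2% at day 14. Under a stricter cell filter, which asked for 1000 genes and no more than 10% mitochondrial UMIs, 116 and 15 SGCs were left (log2 ratio -2.64), and the mitochondrial transcripts of all kept SGCs summed to 132655 and 148258 CPM. Schwann cells, the largest class, took 46.9% and 44.4% (log2 ratio -0.08, -0.19 to 0.03). Within them, non-myelinating cells went from 122 to 55 cells (ratio 0.530, 0.378 to 0.734) while myelinating cells went from 1357 to 1136 (ratio 0.984, 0.908 to 1.07). Vascular cells took 13.6% and 11.9% (log2 ratio -0.20, -0.41 to 0.01) and fibroblasts 2.60% and 2.54% (-0.04, -0.52 to 0.44), and both intervals included 0.

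**Figure D1:**
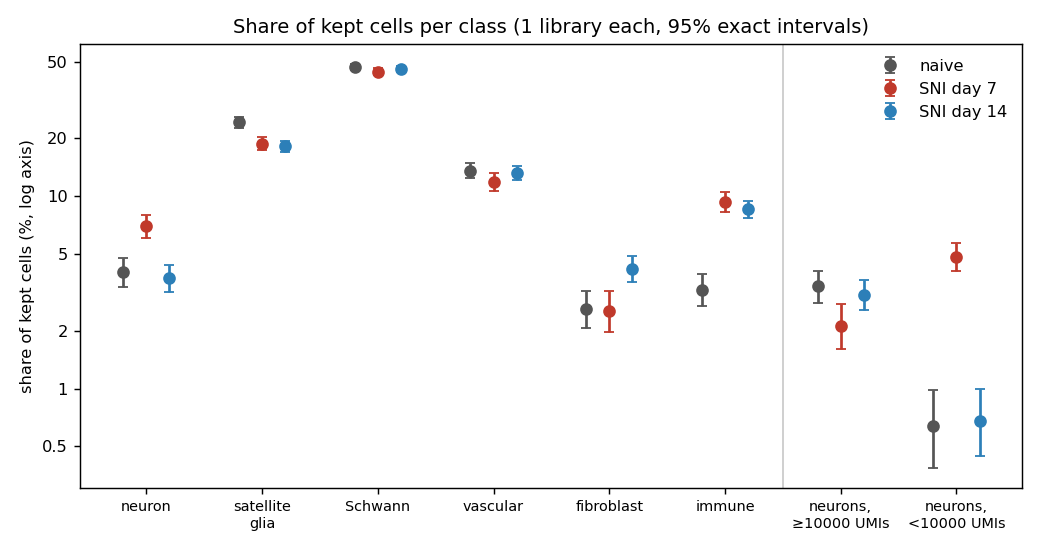
Share of kept cells in each class (percent, log axis) for the naïve, day 7 and day 14 libraries, with exact 95% intervals, and at right the neuron class split at 10000 UMIs per cell. Immune cells stood at 3.27% in the naïve and 9.32% in the day 7 library, and the neuron gain lay in cells under 10000 UMIs.

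The neuron class grew from 127 cells (4.03%, 3.37 to 4.78) to 187 cells (6.97%, 6.04 to 8.00), and stood at 3.76% at day 14, but the added cells were small in RNA. The median neuron held 64113 UMIs in the naïve, 2860 in the day 7 and 80235 in the day 14 library. Neurons with at least 10000 UMIs went from 107 (3.39%) to 57 (2.13%), a ratio of 0.626 (0.446 to 0.871). Those with fewer went from 20 (0.635%) to 130 (4.85%), a ratio of 7.64 (4.75 to 12.9). Hence the share of neurons was higher or lower at day 7 depending on whether shallow cells were counted.

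**Figure D2:**
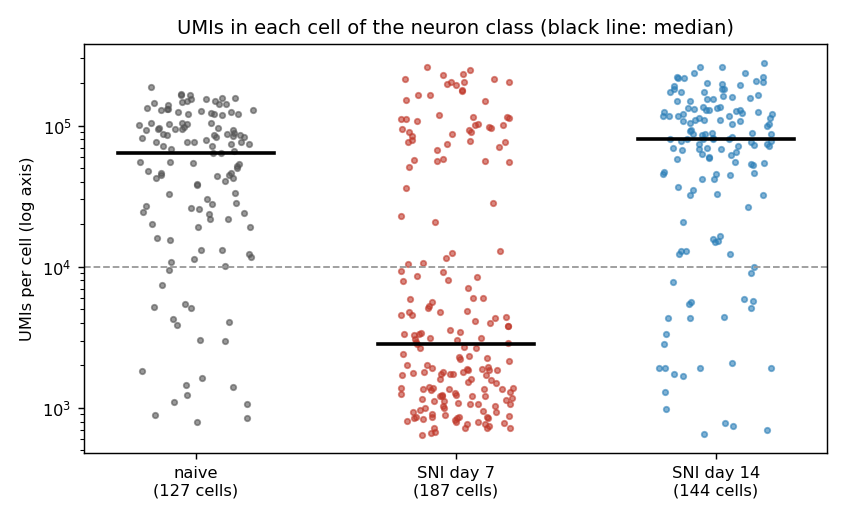
UMIs of each cell in the neuron class (log axis) per library, with a black line at the median and a dashed line at 10000 UMIs. Most day 7 neurons lay below the line (130 of 187), against 20 of 127 naïve and 26 of 144 day 14 neurons.

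As a sum, the shallow day 7 neurons carried a list of 20 injury genes at a level like that of the deep ones (5210 and 4656 CPM). Sprr1a, a cornified envelope protein known as a marker of regrowing axons, was at 801 CPM in shallow and 614 CPM in deep day 7 neurons, and Gap43, a growth cone protein, at 961 and 901 CPM. Sprr1a had a UMI in 66.2% of the shallow and 47.4% of the deep cells, whose medians were 1599.5 and 96714 UMIs, against 1.57% of day 7 vascular cells, with a median of 4756 UMIs. The shallow cells also held more transcripts of other cells. A list of 12 myelin genes summed to 4276 CPM in shallow and 1059 CPM in deep day 7 neurons, against 1301 CPM in shallow naïve ones, and Mbp, the myelin basic protein, was at 1029 CPM in the shallow and 64.8 CPM in the deep day 7 cells. The 7 SGC markers summed to 1557 and 537 CPM in shallow and deep day 7 neurons, hemoglobin genes to 1055 and 38.6 CPM, and mitochondrial transcripts to 120950.0 and 85966 CPM. Whether these were whole small neurons, torn cells or droplets shared with glia was not tested. In summed CPM the deep cells weigh most, since they held 95.3% of the UMIs of day 7 neurons and 99.3% of those of naïve neurons. The 10 cells with most UMIs alone held 18.9% of the naïve, 33.7% of the day 7 and 18.7% of the day 14 neuron UMIs. The part of the mix of neuron types in the neuron values below was not tested.

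Neurons had 82 genes at least 2-fold higher at day 7 (1.23% of 6684 genes tested) and 24 at least 2-fold lower (0.359%). A gene was tested where it had a mean of at least 20 CPM and at least 100 UMIs over both libraries. These calls came mostly from deep neurons, which alone gave 70 of the 82 and all 24. Shallow neurons alone gave 49 higher, of which 14 were among the 82, and 31 lower, of which 0 were among the 24. Their naïve cells held only 63036 UMIs in all. Genes of axon injury and regrowth led the higher side. Of 20 such genes 15 were tested, 12 were past 2-fold higher and 0 past 2-fold lower, and their median log2 ratio was 1.73 against 0.01 for all tested genes. The list is made of genes known to respond to nerve injury and was drawn up with earlier results of these data known, so its direction is a description.

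Sprr1a went from 7.17 CPM to 623 CPM and stood at 273 CPM at day 14, a log2 ratio of 6.44 (6.08 to 6.83) from day 7 to naïve. Of its 61 naïve UMIs 95.1% came from 1 cell, so naïve neurons had almost none. After each cell was thinned to 1000 UMIs, Sprr1a was expected in 0.453% of naïve and 38.2% of day 7 neurons.

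Transcription factors of the injury response were also higher. Atf3, a stress-induced leucine zipper factor, was at 12.2, 165 and 106 CPM in the naïve, day 7 and day 14 neurons (log2 ratio at day 7 3.75, 3.46 to 4.06). Sox11, a factor of growth and development, was at 105, 490 and 353 CPM (2.22, 2.12 to 2.33), and Jun, a partner of Atf3 in AP-1, at 64.1, 150 and 148 CPM (1.23). Each stood above its naïve level at both injured times, and Atf3 and Sox11 were higher at day 7 than at day 14.

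Secreted and axonal products were higher as well. Gal, the neuropeptide galanin, was at 43.5, 505 and 224 CPM (3.54, 3.38 to 3.70), and Bdnf, a neurotrophin, at 56.3, 164 and 126 CPM (1.54, 1.39 to 1.70). Gap43 was at 280, 904 and 1215 CPM (1.69, 1.62 to 1.76). Unlike Gal and Bdnf, Gap43 stood highest at day 14. Nts, the peptide neurotensin, was below its naïve level at day 7 (62.1 against 45.6 CPM) and above it at day 14 (291 CPM). Cacna2d1, the calcium channel subunit that binds gabapentin, was at 366 and 658 CPM (0.85, 0.78 to 0.91) and did not reach 2-fold.

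**Figure D3:**
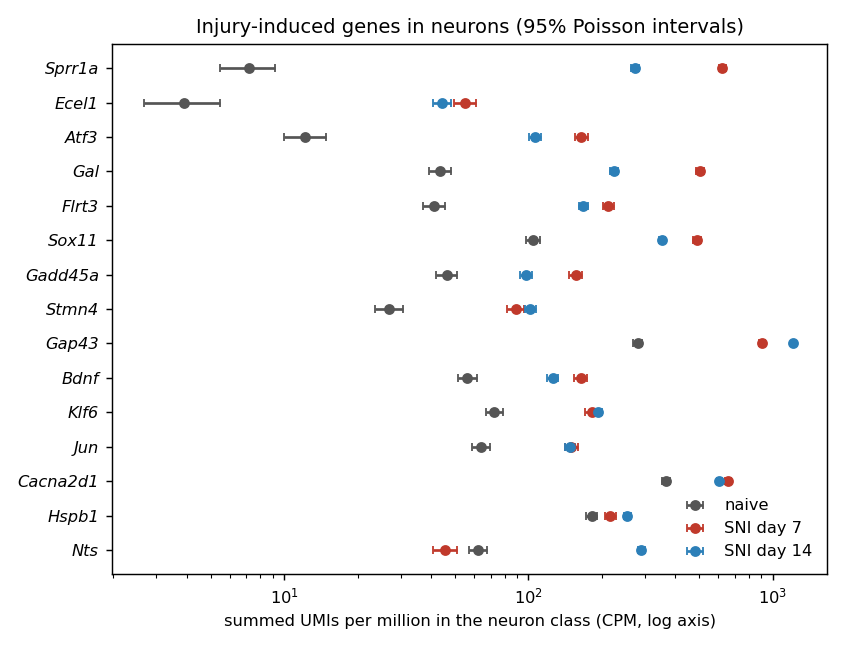
Summed level in CPM (log axis) of the 15 tested injury-induced genes in the neuron class of each library, with 95% Poisson intervals and genes ordered by their log2 ratio at day 7. For 14 of the 15 the day 7 point lies right of the naïve point, the exception being Nts.

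Genes named for size, here and in the other classes, had to lie in at least 10% of cells and at 25% or more of the level of the highest class. By that rule the genes highest over naïve besides Sprr1a were Sez6l, a membrane protein of neurons (0.588, 54.9 and 49.9 CPM, log2 ratio 6.55, 5.31 to 8.18), Inhbb, the activin beta B subunit (0.470, 43.5 and 16.8 CPM, 6.53, 5.16 to 8.42), Lmo7, a scaffold protein with a LIM domain (4.59, 72.6 and 54.9 CPM, 3.99), and Ecel1, an endopeptidase of injured neurons (3.88, 54.9 and 44.3 CPM, 3.82). Sez6l and Inhbb had 5 and 4 UMIs in all naïve neurons, so the size of their ratios rests on few molecules. In neurons under 10000 UMIs Sez6l had 0 naïve and 11 day 7 UMIs. In each of these genes 1 cell held 18.2% to 26.1% of the day 7 UMIs.

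The genes lowest against naïve included a receptor, a transcription factor and secreted products. P2ry1, an ADP receptor, was at 189, 73.7 and 68.4 CPM (-1.36, -1.51 to -1.21), Pou4f2, a POU factor of sensory neurons, at 68.8, 25.8 and 25.3 CPM (-1.42, -1.67 to -1.17), and Wfdc2, a secreted protease inhibitor, at 57.1, 21.1 and 14.4 CPM (-1.44). Tmem72 (-1.39) and Cartpt, the CART peptide (-1.28), were lower too. P2ry1 was lower in deep neurons alone (189 against 77.2 CPM, -1.29), where 46.7% and 42.1% of cells had a UMI.

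Ion channels, receptors and peptides that define sensory neurons had a median near 0 over the whole neuron class. Of 24 such genes 21 were tested, 1 was past 2-fold higher and 0 past 2-fold lower, and their median log2 ratio was -0.06. Their sum differed by depth. It was at 5157 and 5925 CPM in naïve and day 7 deep neurons (0.20, 0.18 to 0.22). In shallow neurons it was at 6457 and 4214 CPM (-0.62, -0.78 to -0.45). The sodium channels Scn9a, Scn10a and Scn11a had log2 ratios of -0.11, -0.06 and -0.11. Lowest were Ntrk3, the neurotrophin-3 receptor of large neurons (173 against 94.3 CPM, -0.88, -1.01 to -0.74), and Kcnd3, a potassium channel of A-type current (184 against 117 CPM, -0.65). Calca, which encodes the peptide CGRP, was at 705 and 1411 CPM (1.0, 0.95 to 1.05), just past the fold used. Its direction depended on the depth of the cells, at 700 against 1455 CPM in deep and 1475 against 521 CPM in shallow neurons.

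An AP-1 site, the sequence that Jun and Atf3 dimers are known to bind, stands at 2 places in the promoter of Sprr1a, and that stretch is shown because Sprr1a had the highest day 7 level of the leading genes. Letters matching TGANTCA on either strand are in capitals. The bases are those from 161 to 95 before the start of transcription (RefSeq, GRCm38.p6, chr3:92485976-92486042, minus strand):
Sprr1a: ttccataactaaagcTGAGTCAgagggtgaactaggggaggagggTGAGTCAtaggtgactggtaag
Of 18 injury list members in the promoter table, 3 hold such a match (Sprr1a, Nts and Bdnf) in the 300 bases around the start, against 7.81% of all 32851 promoters. A match of letters is a description and does not show binding.

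SGCs differed little in gene level. Only 6 of 6785 tested genes (0.0884%) were at least 2-fold higher at day 7 and 12 (0.177%) at least 2-fold lower. Over the 116 and 15 SGCs of the stricter cell filter the counts were 32 and 49. Those held 0 of the 6 higher and 5 of the 12 lower genes, and a gene could drop out there by having too few UMIs. The 6 higher genes of all kept SGCs included Serpina3n, a secreted serine protease inhibitor that reactive glia are known to make (41.2, 91.1 and 173 CPM in naïve, day 7 and day 14, log2 ratio 1.15, 0.90 to 1.39), and 2 clock genes described below. In neurons Serpina3n was at 130 and 161 CPM (0.31). In fibroblasts it had too few UMIs to be tested, with 11 of 263710 in naïve and 37 of 274421 in day 7 cells. A higher Serpina3n level was thus not particular to SGCs. The long noncoding RNA 5930430L01Rik was at 13.5 and 27.0 CPM (1.0, and -0.64 under the stricter cell filter).

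Among 14 reactive glia genes other than Gfap, 8 were tested and Serpina3n alone was past 2-fold, with a median log2 ratio of 0.12 against -0.01 for all tested genes. Vim, an intermediate filament, was at 2396 and 2591 CPM (0.11), S1pr3, a lipid receptor, at 253 and 333 CPM (0.40), and Nes, the filament nestin, at 69.1 and 49.1 CPM (-0.49). Genes by which SGCs clear potassium and glutamate gave 0 of 11 past 2-fold (median 0.06), and cholesterol and fatty acid synthesis 0 of 20, with 15 of 20 below 0 and a median of -0.27. Among cell cycle genes, Top2a, a topoisomerase of dividing cells, was at 8.28, 37.0 and 4.85 CPM (2.16, 1.67 to 2.68) and Hmgb2 at 20.4 and 48.1 CPM (1.24), but Top2a lay in 0.262% and 0.794% of SGCs, and 1 cell held 95.3% and 50.9% of its UMIs.

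On the lower side, Ifi27l2a, an interferon-induced protein of mitochondria, was furthest down, at 418, 110 and 107 CPM (-1.92, -2.07 to -1.78). Isg15, the ubiquitin-like interferon-stimulated protein, was at 154, 57.9 and 31.8 CPM (-1.41), and the orphan receptor gene Gprc5c at 32.1, 11.6 and 13.8 CPM (-1.47, and 0.46 under the stricter cell filter). Gbp2, a guanylate-binding protein (87.4 against 40.0 CPM, -1.13), and Ifit3b (69.5 against 31.9 CPM, -1.13) followed, both of which have near-identical copies among which reads could have been split.

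**Figure D4:**
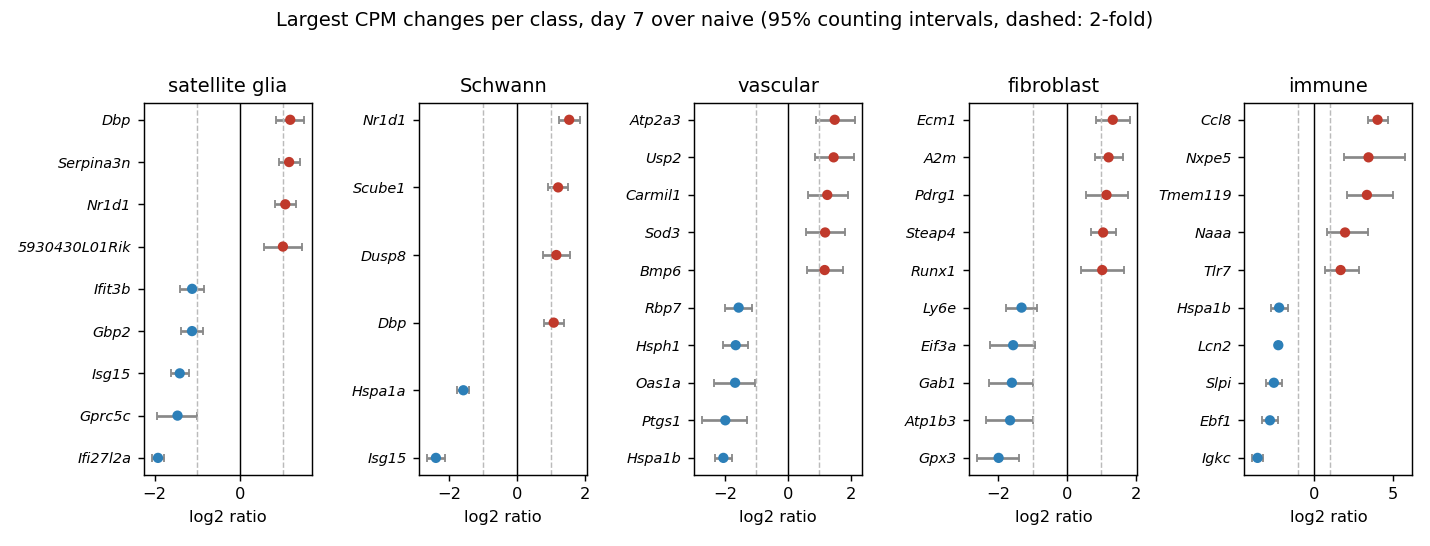
Log2 ratios of CPM, day 7 over naïve, for the genes with the largest changes in the 5 classes other than neurons, with 95% counting intervals, 0 as a solid and 2-fold as dashed lines. Ccl8 in immune cells (4.0) and Igkc in immune cells (-3.58) lie farthest from 0, and each panel has its own horizontal scale.

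Schwann cells had 4 of 6585 tested genes (0.0607%) at least 2-fold higher and 21 (0.319%) at least 2-fold lower. The higher ones were Nr1d1, Dbp, Scube1 and Dusp8. Of the lower ones 4 were hemoglobin genes, for which 1 naïve cell held 88.3% to 94.9% of the UMIs. Scube1, a secreted protein with EGF repeats, was at 33.5, 77.0 and 51.5 CPM (1.20, 0.92 to 1.49) and lay in myelinating cells (35.4 against 78.5 CPM). Dusp8, a phosphatase of stress kinases, was at 19.0, 42.1 and 57.5 CPM (1.15). Myelin genes outside the markers gave 0 of 10 past 2-fold (median 0.02) and repair Schwann cell genes 0 of 5 (median 0.06). Of the latter, Jun, the master factor of repair cells, was at 141 and 168 CPM (0.25, 0.10 to 0.41), Ncam1 at 106 and 76.4 CPM (-0.47), and the other 13 of 18 were too low to test in these ganglion cells. The 18 repair genes summed to 425 and 490 CPM in myelinating cells (0.20, 0.11 to 0.29). In non-myelinating cells they summed to 1943 and 1606 CPM (-0.28, -0.53 to -0.03). The part of the makeup of the Schwann class in its values was not tested.

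Vascular cells had 14 of 6914 tested genes (0.202%) at least 2-fold higher and 28 (0.405%) at least 2-fold lower. Endothelial cells alone had 15 higher, of which 5 were among the 14, and 24 lower, of which 18 were among the 28. A gene could also drop out there by having too few UMIs to be tested. The highest that met the rule for naming, which 8 of the 14 did, were Atp2a3, a calcium pump of the endoplasmic reticulum (14.2, 39.7 and 22.7 CPM, 1.48, 0.88 to 2.12), Usp2, a deubiquitinase (14.2, 38.8 and 30.3 CPM, 1.45), Carmil1 (1.25), Sod3, an extracellular superoxide dismutase (1.18), and Bmp6, a ligand made by endothelium (17.3, 38.8 and 25.5 CPM, 1.16). All 5 were low, with 32 to 39 UMIs in the naïve library. Outside that rule Egr1, an immediate early factor, had the largest ratio, at 35.5, 115 and 110 CPM (1.69, 1.32 to 2.07).

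On the lower side stood Hspa1b (285, 68.8 and 61.7 CPM, -2.05, -2.32 to -1.79) and Hsph1 (105, 33.3 and 26.4 CPM, -1.66), which encode heat shock proteins, with Ptgs1, the enzyme cyclooxygenase-1 (40.4, 10.2 and 30.3 CPM, -1.99), Oas1a, an interferon-induced synthetase (-1.68), and Rbp7, a retinol-binding protein of endothelium (82.1 against 27.7 CPM, -1.57). Ptgs1 was nearer its naïve level at day 14, whereas Hspa1b and Hsph1 were not. Barrier junctions and transporters gave 0 of 11 past 2-fold (median -0.09), and leukocyte adhesion genes 0 of 6 (median -0.08), among them Vcam1, at 65.2 and 67.5 CPM (0.05).

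Fibroblasts were few, with 82 and 68 cells, and 744 genes could be tested. Of these 6 (0.806%) were at least 2-fold higher and 13 (1.75%) at least 2-fold lower. Ecm1, a matrix protein, was at 193, 488 and 287 CPM (1.34, 0.86 to 1.83), A2m, a protease trap, at 265, 616 and 539 CPM (1.21, 0.80 to 1.64), and Steap4, a metalloreductase, at 353, 732 and 651 CPM (1.05). Gpx3, a secreted glutathione peroxidase, was at 436, 109 and 123 CPM (-2.0, -2.63 to -1.41), but 1 cell held 27.0% of its naïve UMIs. Atp1b3, a sodium pump subunit, was at 288, 91.1 and 225 CPM (-1.66, and 0.27 under the stricter cell filter), and Gab1, an adaptor of receptor kinases, at 322, 106 and 215 CPM (-1.61). Runx1, a transcription factor, was higher, at 125, 255 and 167 CPM (1.03). No matrix gene reached 2-fold. Of 12 tested members 9 were above 0, with a median of 0.25 against 0.00 for all tested genes, led by Mmp2, a gelatinase (800.1 against 1439 CPM, 0.85, 0.60 to 1.10), and Fn1, fibronectin (637 against 1093 CPM, 0.78). Under the stricter cell filter the median of the 10 that could be tested was 0.014.

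Immune cells had 61 of 2302 tested genes (2.65%) at least 2-fold higher and 60 (2.61%) at least 2-fold lower. Macrophages alone had 50 higher, of which 25 were among the 61, and 30 lower, of which 9 were among the 60. A gene could also drop out there by having too few UMIs to be tested. Ccl8, a chemokine that draws monocytes, was at 91.6, 1464 and 400 CPM in the naïve, day 7 and day 14 libraries (log2 ratio 4.0, 3.39 to 4.68). It lay in macrophages, at 139 and 1677 CPM (3.59, 2.99 to 4.27), with 22 UMIs in 65 naïve and 1612 in 206 day 7 macrophages. A UMI was found in 13.8% of naïve and 53.4% of day 7 macrophages, against 1.57% of day 7 vascular cells. The median macrophage held 2150.0 and 4290.5 UMIs and the median vascular cell 3667 and 4756.

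The next 4 named by the rule for size were also macrophage genes and were higher within macrophages alone. Tmem119, a membrane protein best known from microglia, was at 31.6, 239 and 122 CPM in macrophages (2.92, 1.68 to 4.56), and Nxpe5 at 19.0, 154 and 57.1 CPM (3.02, 1.45 to 5.32). Tlr7, the sensor of single-stranded RNA, was at 56.9, 136 and 131 CPM (1.26, 0.29 to 2.42), and Naaa, a lysosomal amidase, at 37.9 and 108 CPM (1.51, 0.34 to 2.99), though in immune cells taken from Leiden clusters in place of the markers Naaa was lower (-0.92). Naïve macrophages held 3 to 9 UMIs of each, so the lower bounds of the intervals are the firmer values.

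Of 20 genes of macrophage activation and phagocytosis, 10 were tested and Trem2, a lipid receptor of phagocytes, was past 2-fold (150, 393 and 317 CPM, 1.39, 0.90 to 1.92). The median of the list was 0.25 against 0.10 for all tested genes, but within macrophages alone the 20 genes summed to 38788 and 35242 CPM (-0.14, -0.18 to -0.10). Genes of MHC class II presentation were lower without reaching 2-fold in the whole class. Of 8 members 7 were below 0, with a median of -0.56, and H2-Aa, an alpha chain, was at 7161, 4519.8 and 7205 CPM (-0.66, -0.74 to -0.58). In macrophages alone H2-Aa was at 10692 and 5156 CPM (-1.05, -1.13 to -0.97).

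The lowest genes named by that rule included genes of B cells and neutrophils. Igkc, the kappa light chain constant region, was at 1100 and 91.7 CPM (-3.58), and 263 of its 264 naïve UMIs and all 101 day 7 UMIs lay in B cells, where its level was 11579.8 and 11409.9 CPM (-0.02, -0.37 to 0.31). Ebf1, a B cell factor, was likewise at 354 and 50.8 CPM (-2.80) in the class and at 3610.4 and 5084 CPM in B cells. Lcn2 (2316 against 479 CPM, -2.27) and Slpi (325 against 55.4 CPM, -2.55) lay in neutrophils, where they were at 14570.2 against 9883 CPM (-0.56) and 2044 against 1144 CPM (-0.84). B cells and neutrophils made up 29 of 103 naïve and 23 of 250 day 7 immune cells. Of the 5 lowest, Hspa1b was the exception. It was at 258 and 55.4 CPM (-2.22, -2.76 to -1.69) in the class and at 379 and 61.4 CPM (-2.63, -3.17 to -2.08) in macrophages. The part of the makeup in the other 4 was not tested.

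No gene moved at least 1.5-fold the same way in all 6 classes, with 0 higher and 0 lower (0%) of the 484 genes tested in every class. Of these 484, 40 were above and 38 below their naïve level in all 6 classes, by small amounts. Snrnp70, a spliceosome protein, was higher by at least 0.22 on the log2 scale in each class, and Manf, a stress protein of the endoplasmic reticulum, lower by at least 0.27. B2m, the light chain of MHC class I, and Dnaja1, a chaperone, were below naïve in all 6 with intervals off 0 in each (B2m from -0.16 to -0.98, Dnaja1 from -0.09 to -0.91).

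Over the 4 largest classes, which shared 4350 tested genes, 0 were at least 1.5-fold higher and 3 at least 1.5-fold lower in all 4. These were Bst2, Ifit1 and Fxyd2. Fxyd2, a subunit of the sodium pump in sensory neurons, was at 7026 and 4357 CPM in neurons and under 1% of that level in the other classes, where its log2 ratios (-0.59 to -0.69) were close to that of neurons (-0.69). Bst2 and Ifit1 are interferon-induced, and are described next with the genes of that response.

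Interferon response genes had medians below 0 at day 7 in every class. Of 16 genes, 13 were tested in SGCs, all 13 were below 0 and 6 were past 2-fold lower (median -0.79). In Schwann cells 7 of 12 were past 2-fold lower (median -1.52), in vascular cells 4 of 16 (median -0.60, all below 0), in immune cells 4 of 12 (median -0.79, all below 0), and in neurons 2 of 9 (median -0.43). No member was past 2-fold higher in any of these 5 classes, and in fibroblasts 1 member, Ifitm3, was tested (-0.22). Medians over all tested genes lay between -0.01 and 0.10, and from 0.177% (SGCs) to 2.61% (immune cells) of them were past 2-fold lower.

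Isg15 was past 2-fold lower in 4 classes, more than any other gene. In Schwann cells it was at 160, 30.7 and 16.3 CPM in the naïve, day 7 and day 14 libraries (-2.38, -2.65 to -2.13), in vascular cells at 218, 89.6 and 96.2 CPM (-1.28), and in immune cells at 158, 65.4 and 17.6 CPM (-1.28). Ifit1, which binds foreign RNA, was at 99.8, 10.9 and 14.5 CPM in Schwann cells (-3.19, -3.63 to -2.78) and at 255, 112 and 93.9 CPM in neurons (-1.19, -1.31 to -1.06). Bst2, the tether of budding virus, was at 89.8 and 29.3 CPM in Schwann cells (-1.62) and at 435 and 218 CPM in vascular cells (-1.0). In each case the day 14 library was also under the naïve one.

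The difference was also present within single cell types. The summed level of the 16 genes was 7666, 2653 and 1620 CPM in non-myelinating Schwann cells (-1.53, -1.71 to -1.36), 966, 446 and 400 CPM in myelinating ones (-1.12), 7002, 3544 and 1804 CPM in macrophages (-0.98, -1.08 to -0.88), and 6516, 4314 and 4253 CPM in endothelial cells (-0.60). In deep neurons it was 771 and 459 CPM (-0.75). Genes of MHC class I and its peptide loading, which interferon also induces, were below naïve for all members tested in the 5 classes other than neurons, with medians of -0.26 in SGCs, -0.48 in Schwann, -0.48 in vascular, -0.87 in fibroblast and -0.30 in immune cells, and 0 past 2-fold in these classes. In neurons 5 members were tested, with 3 above 0 and a median of 0.20. There H2-T23 (1.07) was past 2-fold higher, as were 1.23% of all genes tested in neurons. Unlike the sum of the interferon genes, that of the MHC class I genes was above its naïve level at day 14 in SGCs (1885, 1491 and 2181 CPM) and in Schwann cells (1299, 951 and 1382 CPM).

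The interferon-stimulated response element, at which ISGF3 binds, is found in the promoters of several of these genes, and those of the 3 genes above and of Ifit3 are shown. Capitals mark its core, which is GAAA, any 2 bases and GAAA again, or the reverse complement, and overlapping matches are merged. All are RefSeq sequences of GRCm38.p6 before the start of transcription.
Isg15 (chr4:156200860-156200911, minus strand): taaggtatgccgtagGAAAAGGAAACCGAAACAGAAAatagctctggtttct
Ifit1 (chr19:34640770-34640828, plus strand): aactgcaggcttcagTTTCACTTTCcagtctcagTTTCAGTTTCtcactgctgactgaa
Ifit3 (chr19:34583358-34583431, plus strand): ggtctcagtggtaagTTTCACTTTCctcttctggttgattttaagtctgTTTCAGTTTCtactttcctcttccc
Bst2 (chr8:71537572-71537617, minus strand): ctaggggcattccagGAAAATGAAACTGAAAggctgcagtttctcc
Isg15 has 3 overlapping matches and each of the others 2. Of 12 list members found among the promoters, 7 hold a match in the 300 bases around the start, against 3.44% of all promoters. The list is of genes known to respond to interferon, so this count is a description and does not show binding.

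Heat shock genes were lower in the 5 classes other than neurons. Below 0 were all 13 tested in SGCs (median -0.50, 1 past 2-fold lower), all 14 in Schwann cells (-0.50, 3 past), all 15 in vascular cells (-0.74, 3 past) and all 6 in fibroblasts (-0.52), and in immune cells 5 of 7 (-0.42, 1 past). In neurons the median was -0.06, with 10 of 14 below 0 and 0 past 2-fold, and their summed level was 6626, 6454 and 6788 CPM in the naïve, day 7 and day 14 libraries. In SGCs that sum was 5630, 3902 and 3718 CPM, and in vascular cells 7060, 4371 and 3728 CPM. Of all tested genes, 0.177% in SGCs, 0.319% in Schwann, 0.405% in vascular and 2.61% in immune cells were past 2-fold lower. Their medians lay between -0.01 and 0.10.

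Hspa1a and Hspa1b, the inducible HSP70 genes, were past 2-fold lower in 3 and 2 classes. Hspa1a was at 221, 73.9 and 69.2 CPM in Schwann cells (-1.58, -1.76 to -1.40), 168, 82.3 and 70.8 CPM in SGCs (-1.03) and 115, 40.2 and 32.8 CPM in vascular cells (-1.51, -1.88 to -1.15). The constitutive chaperones were lower by less, such as Hspa8 in SGCs (1523 against 1005 CPM, -0.60) and Hsp90ab1 in Schwann cells (1583 against 1136.5 CPM, -0.48). Handling time and temperature of each pool are not given in the sources used here, so they and the injury cannot be told apart. Hspa1a and Hspa1b share 247 of the 250 bases before their starts and have near-identical transcripts, so the split of reads between them is uncertain. Their heat shock element is shown because it stands at the same place in both, with capitals for GAANNTTC, which is its own reverse complement (RefSeq, GRCm38.p6, bases 119 to 82 before the start):
Hspa1a (chr17:34972238-34972275, minus strand): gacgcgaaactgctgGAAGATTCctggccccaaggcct
Hspa1b (chr17:34959320-34959357, minus strand): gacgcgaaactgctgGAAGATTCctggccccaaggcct
Of 12 heat shock list members found among the promoters, 9 hold such a match in the 300 bases around the start, against 7.86% of all promoters. This count too is a description of a list of known heat shock genes and does not show binding.

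**Figure D5:**
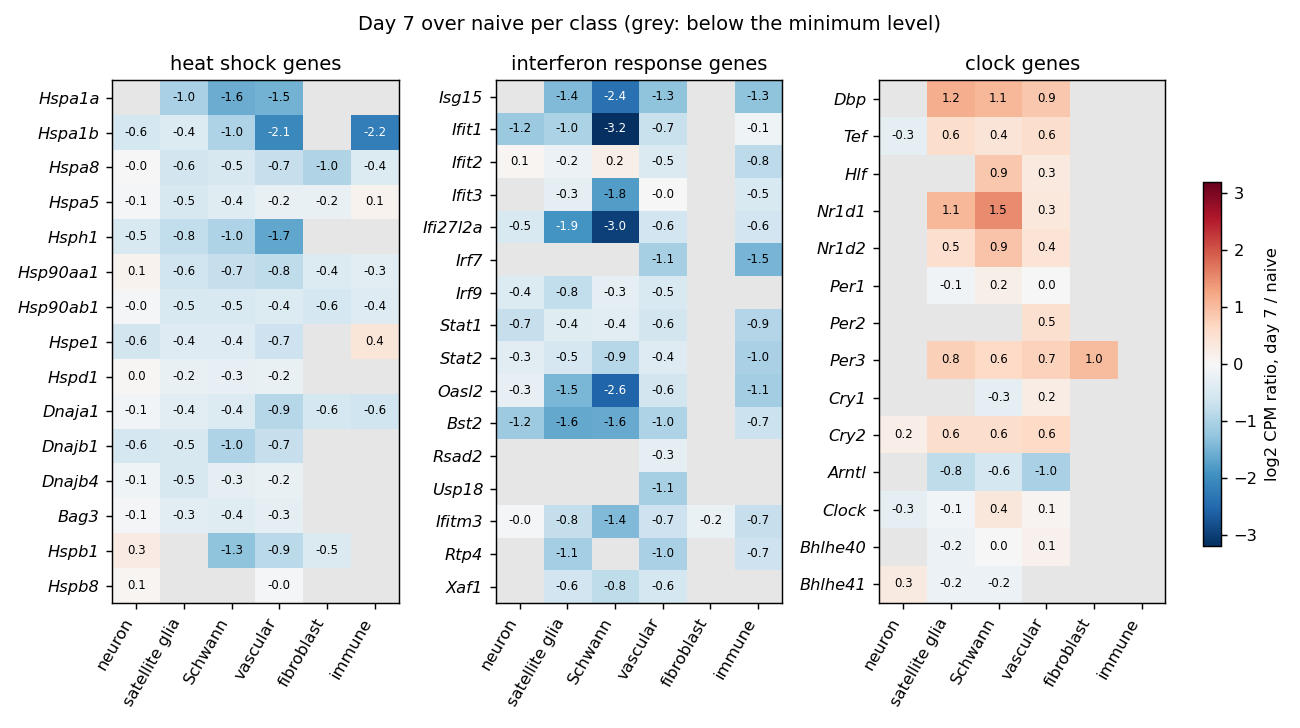
Log2 ratios of CPM, day 7 over naïve, of heat shock, interferon response and clock genes (rows) in the 6 classes (columns), red for higher and blue for lower, with grey where a gene was too low to test. Interferon response genes are blue in nearly all tested cells of the grid (Ifit1 in Schwann cells, -3.19), heat shock genes are pale in neurons, and among clock genes Dbp and Nr1d1 are red where Arntl is blue.

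Clock genes were shifted in the glial and vascular classes in 2 directions. Nr1d1, the repressor REV-ERB alpha, was at 29.0, 83.4 and 108 CPM in Schwann cells (1.52, 1.23 to 1.83), 42.1, 87.7 and 102 CPM in SGCs (1.06, 0.81 to 1.30) and 152, 193 and 231 CPM in vascular cells (0.34, 0.13 to 0.55). Dbp, an output factor of the clock, was at 31.8, 66.9 and 71.4 CPM in Schwann cells (1.07), 22.9, 51.6 and 69.9 CPM in SGCs (1.17) and 86.5, 158 and 228 CPM in vascular cells (0.87). Arntl, the activator BMAL1 whose rhythm runs opposite to theirs, was lower, at 44.2, 29.9 and 20.8 CPM in Schwann cells (-0.56, -0.89 to -0.24), 51.2, 29.3 and 23.7 CPM in SGCs (-0.81) and 38.2, 18.5 and 9.82 CPM in vascular cells (-1.05, -1.63 to -0.49).

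Among the other members, Per3 was higher in all 4 classes where it was tested, SGCs (0.76), Schwann (0.63), vascular (0.73) and fibroblast (1.0), and Cry2 in all 4 of its own, including neurons (0.21). Medians of the list were 0.55 in SGCs with 2 of 11 past 2-fold higher, 0.41 in Schwann cells with 2 of 13, and 0.34 in vascular cells with 0 of 13 higher and 1 lower, whereas the 4 members tested in neurons had a median of -0.05. Of all tested genes, 0.0884% in SGCs and 0.0607% in Schwann cells were past 2-fold higher. In vascular cells 0.202% were past 2-fold higher and 0.405% lower. Under the stricter cell filter only 1 clock gene could be tested in SGCs (0.10). Over the alternatives the log2 ratio of Nr1d1 in SGCs ranged from 0.03 to 1.13. The hour at which each pool was collected is not given in the sources used here, and it and the injury cannot be told apart. The D-box, at which Dbp binds, stands at 2 places in the Per3 promoter (capitals for TTATGTAA, RefSeq, GRCm38.p6, bases 220 to 136 before the start, chr4:151044801-151044885, minus strand), and Per3 is shown as a member that was higher in all 4 classes where it was tested:
Per3: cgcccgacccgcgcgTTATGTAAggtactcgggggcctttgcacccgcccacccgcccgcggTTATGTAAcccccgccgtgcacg
It was the only 1 of 15 list members in the promoter table with a D-box in the 300 bases around the start, a word found on either strand in 0.938% of all promoters. An E-box, CACGTG, was held by 5 of the 15 and by 7.15% of all promoters.

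Immediate early genes, which dissociation is known to raise, had medians above 0 in every class other than immune cells. Their medians were 0.11 in SGCs, 0.32 in Schwann, 0.19 in vascular, 0.14 in fibroblast (2 genes tested) and -0.41 in immune cells, and 0.59 in neurons, where Jun and Atf3 were the 2 of 6 past 2-fold. In vascular cells Egr1 and Nr4a1 (1.12) were past 2-fold higher, and in immune cells Fos and Dusp1 (-1.98) past 2-fold lower. Of all tested genes, 1.23% in neurons and 0.202% in vascular cells were past 2-fold higher, and 2.61% in immune cells lower. Fos was at 202 and 276 CPM in SGCs (0.45) and at 275 and 120 CPM in immune cells (-1.20). The immediate early list summed to 2320 and 1596 CPM in immune cells. Within macrophages it was at 1630 and 1413 CPM (-0.21) and within neutrophils at 6394 and 5720 CPM (-0.16). The part of the immune makeup was not tested. Mitochondrially encoded transcripts, a sign of cell quality, had medians of log2 ratios between -0.06 in fibroblasts and 0.27 in vascular cells, with 0 past 2-fold. Glucocorticoid-induced genes and metallothioneins had medians from -0.99 in immune cells to 0.51 in neurons, and in vascular cells Mt1, a metal-binding protein, was at 3326 and 1918 CPM (-0.79, -0.85 to -0.74). The immune median rests on 3 tested genes, among them Lcn2. That list summed to 929 and 600 CPM in macrophages (-0.63) and to 15252 and 10371 CPM in neutrophils (-0.56). For this list too, the part of the makeup in the immune value was not tested. Hemoglobin genes gave 4 genes past 2-fold higher in immune cells, where 1 day 7 cell held 48.4% to 51.6% of their UMIs, and 1 in neurons, Hbb-bs (21.9 against 45.6 CPM, 1.06). In deep neurons alone Hbb-bs was at 21.7 and 20.3 CPM (-0.09), and its ratio in neurons was 0.18 under the stricter cell filter.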

How the data were processed

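Cells of whole L3 and L4 DRGs were profiled by 10x single-cell RNA sequencing, 1 library per condition. The authors deposited raw UMI counts of 31053 genes for barcodes already called as cells. The submitters' processing notes name Cell Ranger 3.0.2 and mm10, and the gene annotation is not given in the sources used here. The study's methods text does not describe the preparation of these libraries.

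Cells were kept at 500 or more genes and at most 20% mitochondrial UMIs. Each kept cell was assigned to 1 of 6 classes by the mean log marker level of 11 cell types, each scaled to its 30 highest cells, with a minimum of 0.3 and a margin of 0.15, both set after seeing the data. UMIs were summed per class and library and divided by their total (CPM), and the base-2 log of the ratio was given with a 95% exact interval from the 2 counts. Shares have exact (Clopper-Pearson) intervals. Genes needed a mean of 20 CPM and 100 UMIs, and a change was called at 2-fold. The genes named for size are at most 5 each way per class, found in 10% or more of cells, at 25% or more of the level of the highest class, with an interval off 0, and neither gate markers, Gfap, mitochondrial nor hemoglobin genes. A zero count was set at 3 counts for ratios. No replicate exists, so no test was run. Markers, the 21 gene lists and the cell classes were chosen with earlier results of these data known. The counting scripts were tested on simulated data. Alternatives were other cell filters, gates, Leiden clusters, CPM minimums and scalings. Python 3.11.15, numpy 2.4.6, scipy 1.17.1, pandas 2.3.3, scanpy 1.11.5, leidenalg 0.10.2 and matplotlib 3.10.9 were used. Promoter sequences came from RefSeq tables of GRCm38.p6. A list member counted as a match if any of its promoters held the letters, whereas the share of all promoters counts each promoter, so the 2 are not fully alike.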

Additional observations from a re-analysis of the deposited data

Results flagged for a closer look

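S100a11, a calcium-binding protein, was past 2-fold in opposite directions in 2 classes, with a log2 ratio of day 7 over naïve of 1.28 in neurons and -1.63 in immune cells. The difference was not tested, since each condition has 1 library. In macrophages alone S100a11 was at 31.6 and 83.2 CPM (1.40, 0.12 to 3.06), and in neutrophils at 4507 and 3469 CPM. Neutrophils made up 16 of 103 naïve and 19 of 250 day 7 immune cells, and the part of this makeup in the value for the whole class was not tested.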

How the results depend on the processing

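No paired analysis was possible because only 1 library stands on either side. Over the alternatives, 31 of 37 values of class shares, 120 of 150 counts of called genes and 593 of 649 values of named genes stayed within their interval or within 1.5 times, and the cause was not tested where they did not. The 2 changes of CPM minimum cannot move the ratio of a named gene, so their 55 unchanged values each were fixed in advance. Of the 55 named genes, 29 were past 2-fold under every alternative and 26 were not. Under the stricter cell filter (1000 genes, no more than 10% mitochondrial UMIs) the log2 share ratio was -0.21 for neurons, which reversed it, -2.64 for SGCs, 0.077 for Schwann and 1.98 for immune cells. That filter gave 11 genes lower in neurons, 32 higher and 49 lower in SGCs, 7 higher and 14 lower in vascular cells, 2 higher and 3 lower in fibroblasts and 24 lower in immune cells, and reversed 5930430L01Rik (-0.64), Gprc5c (0.46) and Atp1b3 (0.27). Without a cell filter 3 genes were higher in SGCs. The neuron share ratio was 0.44 with a stricter gate margin and -0.68, reversed, for neurons with at least 10000 UMIs. With Leiden clusters Naaa in immune cells was at -0.92, reversed. A mean of at least 100 CPM gave 20 higher and 4 lower in neurons, 0 and 3 in SGCs, 0 and 4 in Schwann cells, 1 and 6 in vascular cells and 29 higher in immune cells. No CPM minimum gave 179 and 62 in neurons, 11 and 21 in SGCs and 8 and 38 in Schwann cells. Weighting each cell equally gave 397 and 278 in neurons and 22 higher in vascular cells. Of the alternatives chosen after seeing the data, neurons under 10000 UMIs gave 49 higher and -0.41 for Sez6l, a sign set only by the 3 counts put in place of its 0 naïve UMIs, macrophages alone 30 lower, and myelinating Schwann cells alone 13 lower. Depth limits the fibroblast and immune classes most, with 744 and 2302 genes tested.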
